A study of Mus musculus with 18 samples.

Results

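Differentiated mouse cells that had received 10 Gy of ionizing radiation (IR) were compared at 4 h and at 15 min after exposure, using 6 of the 18 arrays of the series. These ED cells are isogenic non-stem cells obtained from primary, early passage embryonic stem (ES) cells by withdrawal of LIF and, per the study's methods, of beta-mercaptoethanol, for a time that the labels (a week, or until stem cell markers were no longer seen) and the methods (a minimum number of days) give differently. This undirected differentiation can leave a mixture of cell types. The ED cells collected 15 min after IR are named EDRE (radiation early) and those collected 4 h after IR are named EDRL (radiation late), with 3 arrays in each group. Unirradiated ED cells (3 arrays) are given as the level before IR, and the parental ES cells, kept in LIF and collected at the same times after 10 Gy (ESRE and ESRL, 3 arrays each), serve in the last comparison. No unirradiated ED cells were collected at 4 h, so time in culture and time after IR cannot be told apart. The labels name triplicates without saying whether they were separate cultures, and the p-values therefore measure the spread between these arrays, which may be technical.

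DNA double-strand breaks activate the kinases ATM and ATR, which stabilise the transcription factor p53. In the hours after damage p53 raises transcription of genes that hold the cell cycle (Cdkn1a), that limit p53 itself (Mdm2, Ccng1, Ppm1d) and that prepare cell death (Bax, Fas, Perp). Through p21, the product of Cdkn1a, it also lowers genes of G2 phase and mitosis, many of which carry a cell cycle genes homology region (CHR) and CCAAT boxes close to the transcription start. The questions addressed here are which of these genes differed between 15 min and 4 h, by how much, and what else differed with them. Because whole cell populations were measured, fewer cells of a type and less RNA per cell cannot be told apart.

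Signals are given on a log2 scale relative to the 75th percentile of the same array, so that 0 is the signal at that percentile and each unit is a doubling. A gene was called higher or lower where limma's Benjamini-Hochberg adjusted p was under 0.05 and the change exceeded 1 on that scale. The t-test of the study's methods, run on probes with at least 2 values in each group, is called the methods' t-test. The EDRE arrays were not alike. Replicates 2 and 3 of EDRE were dimmer, with 75th percentile signals of 851 and 1120 against 2926 on replicate 1 and 2814 to 3123 on the EDRL arrays, and 49.5% and 55.5% of their probes were well above background against 70.7% to 81.8% on the other 4. On those 2 arrays 24.4% and 23.8% of spots carried an outlier mark from the scanner software, against 4.34% to 5.42% on the others, and marked spots were left out. The marks of those 2 arrays fell mostly on bright spots. They took 74.6% and 68.6% of spots above the 75th percentile and 7.44% and 8.68% of the rest. Of the 24167 probes tested, 6348 (26.3%) had a value on EDRE replicate 1 alone of the EDRE arrays. EDRE replicate 1 shared its scan time with all 3 EDRL arrays and EDRE replicates 2 and 3 shared another. The unirradiated ED arrays were all scanned at a time that no EDRE or EDRL array shared. Comparisons with the unirradiated mean therefore cross scan times. Over all probes replicate 1 of EDRE correlated with the EDRL arrays at r = 0.977 to 0.983 and with its own replicates 2 and 3 at 0.930 and 0.944. Most changes are therefore given both for all 6 arrays and within 1 scan time, which sets the 3 EDRL arrays against EDRE replicate 1 alone. Where the outlier marks leave a gene on EDRE replicate 1 alone, the change is the same in both fits. For such genes, and for all genes within 1 scan time, EDRE replicate 1 has no replicate that measures its spread. The spread is then taken from the other arrays of the fit, those of ES cells among them.

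Over all 6 arrays, 22059 genes were tested. At 4 h 878 genes were called higher (3.98%) and 849 lower (3.85%), which are the backgrounds of the list members called over all arrays below. Within 1 scan time 497 of 21811 genes were called higher (2.28%) and 111 lower (0.509%). The genes called both ways numbered 252 among the higher ones, 28.7% of the calls over all arrays and 50.7% of those within the scan time, and 60 among the lower ones, 7.07% and 54.1%. Probes called lower had a median change of -0.45 from EDRE replicate 1 and of -1.61 from replicates 2 and 3, so the lower calls rested more on the dimmer pair of arrays than did the higher calls, for which these medians were 1.02 and 1.94. Of the 912 probes called higher, 301 were well above background on all 3 EDRE arrays, so that most passed the detection filter through the EDRL group, in which they were high, against 846 of the 892 called lower. With detection required on all arrays of every group, 318 genes were called higher and 857 lower. With only the groups compared in the fit, so that no other group lends its spread, 53 genes were called higher and 3 lower. Without EDRE replicate 1 the counts were 2273 higher and 3589 lower, and without EDRE replicates 2 and 3 they were 390 and 81. Leaving out EDRE replicate 2, EDRE replicate 3 or any EDRL array gave 385 to 489 higher and 251 to 310 lower genes. The median change of all probes tested was -0.11 over all arrays and 0.04 within 1 scan time, and the medians of the gene lists below are read against these values. At an unadjusted p under 0.05 limma had 11.6% of probes higher and 17.0% lower over all arrays and 9.72% and 6.36% within 1 scan time, and the methods' t-test 6.98% and 5.70% of 17485 probes, which are the backgrounds of the unadjusted counts below.

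**Figure D1:**
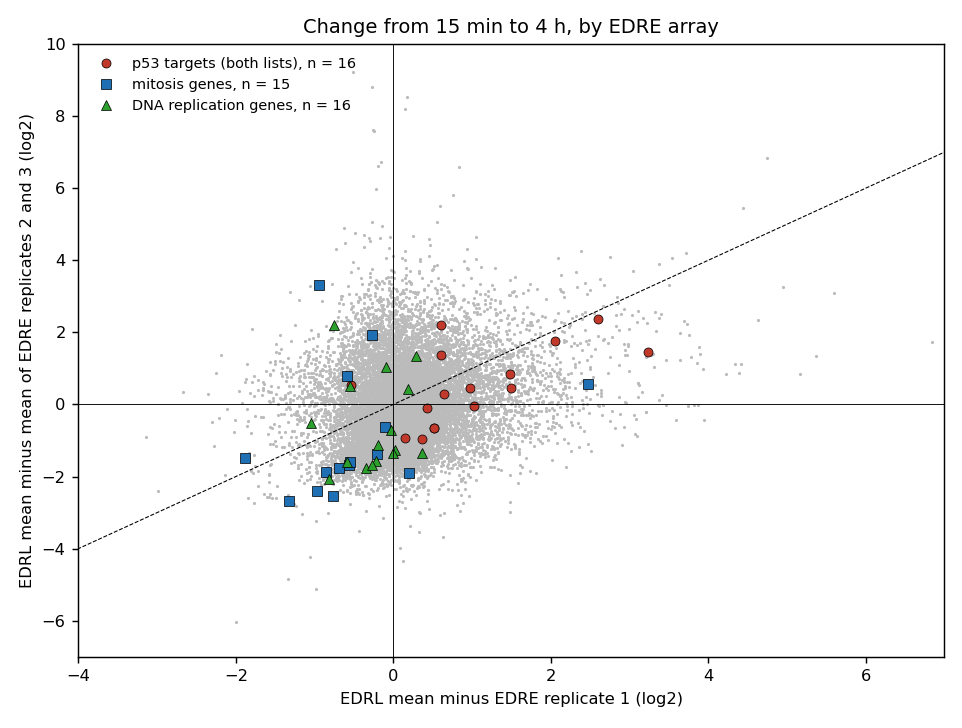
Change of each probe from 15 min to 4 h in irradiated ED cells, measured from EDRE replicate 1 (x axis) and from the mean of EDRE replicates 2 and 3 (y axis), both as log2 differences from the mean of the 3 EDRL arrays. Grey points are the 17562 probes measured on both sides, coloured points are p53 targets (16), mitosis genes (15) and DNA replication genes (16), and the dashed line marks equal changes. The p53 targets lie mostly to the upper right, and mitosis and replication genes lie mostly to the lower left and below the dashed line.

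Among p53 targets that act in arrest, repair and feedback, 4 of the 18 genes tested rose and none fell over all arrays, and 3 rose within 1 scan time. The median change of the 18 genes was 0.52, against -0.11 for all probes. With the marked spots kept, 9 of the 18 (50%) had all 3 EDRL arrays above all 3 EDRE arrays, against 12.9% of all probes tested. At an unadjusted p under 0.05 limma had 6 higher and 0 lower, and the methods' t-test 3 and 0 of 9. The other 3 members, Gadd45a, Sesn1 and Ercc5, were not tested because of outlier marks.

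Gdf15, a secreted stress cytokine, stood at -5.25, -5.01 and -5.03 on EDRE replicates 1 to 3 and at -2.55, -2.65 and -2.73 on the EDRL arrays. The groups did not overlap, and the unirradiated ED mean of -4.76 lay with the EDRE arrays. On EDRE replicate 2 Gdf15 was not well above background, so its change over all arrays is in part read against background. The log2 change was 2.45 (SE 0.14, adjusted p = 5.37e-07 by limma) and 2.61 within 1 scan time (adjusted p = 2.3e-05). Ccng1, whose product cyclin G1 limits p53, stood at 4.36 on EDRE replicate 1 and at 5.96, 5.54 and 5.56 on the EDRL arrays. The spots of replicates 2 and 3 of EDRE (3.66 and 3.85) were marked and left out, so that without EDRE replicate 1 no value remained. Ccng1 rose by 1.33 (SE 0.36, adjusted p = 0.0343, and 0.0209 within 1 scan time), and its call was lost when any single array but EDRE replicate 1 was left out (adjusted p 0.0508 to 0.0952). Trp53inp1, which supports p53 activity, stood at 1.65, 2.51 and 2.10 on the EDRE arrays and at 3.11, 3.16 and 3.13 on the EDRL arrays. All 6 arrays were above the unirradiated mean of 0.92. The change was 1.05 (SE 0.22, adjusted p = 0.0121) over all arrays and 1.48 within 1 scan time (adjusted p = 0.00383), and it was 0.83, under the limit of 1, without EDRE replicate 1. Polk, a translesion DNA polymerase, differed by 1.67 (adjusted p = 0.0223) over all arrays but by 0.61 (adjusted p = 0.456) within 1 scan time. Its EDRE levels were -2.19, -4.27 and -3.28 and its EDRL levels -1.66, -1.66 and -1.43, close to the unirradiated mean of -1.88. Without any single array but EDRE replicate 1 the Polk call was lost (adjusted p 0.0605 to 0.0779).

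Several central targets did not reach the limit of 1. Mdm2, the ubiquitin ligase that degrades p53, stood at 3.90 on EDRE replicate 1 and at 4.84, 4.76 and 4.65 on the EDRL arrays. Its change was 0.85 (SE 0.20, adjusted p = 0.0187). Zmat3, an RNA-binding p53 target, differed by 0.85 (adjusted p = 0.0284). Both rest on EDRE replicate 1, and for both the marked spots of the other EDRE arrays lay below the EDRL arrays. Cdkn1a, the inhibitor of cyclin-dependent kinases, stood at -1.24 on EDRE replicate 1, with marked spots at 0.24 and 0.06, and at -0.62, -0.53 and -0.74 on the EDRL arrays. Its change of 0.62 (SE 0.41, adjusted p = 0.358) did not pass the test, and a second Cdkn1a probe differed by 0.80 (adjusted p = 0.231). Btg2 differed by 0.31 (adjusted p = 0.69, and 1.02 with adjusted p = 0.427 within 1 scan time). Ppm1d differed by -0.57 (adjusted p = 0.258), and by 0.15 within the scan time, where the sign turned. The count of 4 fell to 2 when any 1 of the 6 arrays was left out, and also without EDRE replicates 2 and 3 together.

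Of the p53 targets that act in apoptosis, 4 of 11 tested rose over all arrays and 5 rose within 1 scan time, and none fell in either. The median change was 0.80. With marked spots kept, 7 of the 11 (63.6%) had all EDRL arrays above all EDRE arrays, against 12.9% of all probes tested. At an unadjusted p under 0.05 limma had 7 higher and 0 lower, and the methods' t-test 3 and 0 of 7. Bbc3 and Pmaip1, which encode the death inducers PUMA and NOXA, were not well above background throughout either group and Ei24 was not tested.

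Fas, a death receptor of the cell surface, stood at -0.18 on EDRE replicate 1 and at 2.43, 2.26 and 2.45 on the EDRL arrays. The marked spots of EDRE replicates 2 and 3 (-0.82 and -0.24) and the unirradiated mean (-0.30) lay with EDRE replicate 1. The change was 2.55 (SE 0.29, adjusted p = 0.000366), and a second Fas probe, measured on all 3 EDRE arrays, rose by 2.06 (SE 0.21, adjusted p = 6.95e-05). Perp, a membrane protein that takes part in p53-dependent death, stood at -0.44 and -0.14 on EDRE replicates 1 and 2, with a marked spot at -0.43 on replicate 3, and at 1.74, 1.57 and 1.53 on the EDRL arrays. It rose by 1.90 (SE 0.17, adjusted p = 3.08e-05) over all arrays and by 2.05 (adjusted p = 0.000134) within 1 scan time. Eda2r, a receptor of the TNF receptor family, stood at 2.08 on EDRE replicate 1, with marked spots at 1.84 and 1.36, and at 3.22, 3.13 and 3.06 on the EDRL arrays. Its rise was 1.05 (SE 0.20, adjusted p = 0.00975) and rests on EDRE replicate 1. A second Eda2r probe, measured on all 3 EDRE arrays, missed the threshold (1.23, adjusted p = 0.0928). Gdf15 and Perp kept their calls with each array left out in turn. The first probes of Fas and Eda2r did so where a value could be had. These 2 probes rest on EDRE replicate 1, so leaving out arrays could not probe their 15 min level.

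Trp73, a p53 family member, was not well above background on any EDRE array (-8.79, -6.55 and -7.46) and stood at -5.14, -5.90 and -5.62 on the EDRL arrays. It was at least 1.61-fold higher at 4 h (adjusted p = 0.0214 over all arrays and 0.0109 within 1 scan time), a bound set against the lowest signals that were well above background on each EDRE array. Against EDRE replicate 1 alone the bound was 6.88-fold. Against EDRE replicates 2 and 3 alone, whose lowest such signals were higher, there was no bound. All 3 probes of the gene were called in both fits, and the call of the probe given here was lost without EDRE replicate 3 (adjusted p = 0.0594), EDRL replicate 1 (0.0841) or EDRL replicate 3 (0.0632). Tnfrsf10b, the receptor of the death ligand TRAIL, stood at -4.55, -3.49 and -3.52 on the EDRE arrays and at -2.94, -3.41 and -2.81 on the EDRL arrays. It was called within 1 scan time only (1.49, adjusted p = 0.00727, against 0.80 and adjusted p = 0.0619 over all arrays). Apaf1, the core of the apoptosome, differed by 0.87 (adjusted p = 0.0184), and Pidd1 by 0.72 (adjusted p = 0.113, and 0.97 with adjusted p = 0.0209 within 1 scan time). Bax, which permeabilises mitochondria, stood at 3.50, 4.52 and 4.82 on the EDRE arrays and at 4.12, 3.95 and 3.96 on the EDRL arrays. Its difference was -0.27 (adjusted p = 0.633) over all arrays and 0.51 (adjusted p = 0.287) within 1 scan time, where all 11 members with a value were positive.

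**Figure D2:**
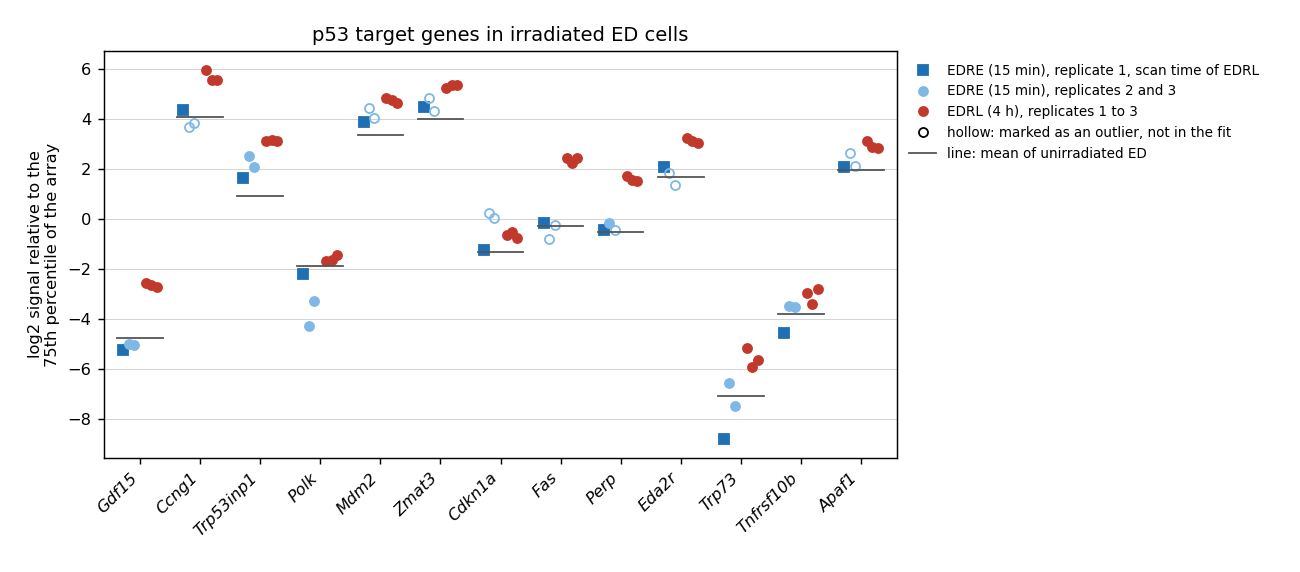
Level of 13 p53 targets on each array (y axis, log2 signal relative to the array's 75th percentile). Squares are EDRE replicate 1, light circles EDRE replicates 2 and 3 and red circles the EDRL arrays, hollow symbols are outlier-marked spots that were not fitted, and the short line is the mean of unirradiated ED cells. Gdf15, Fas and Perp show EDRL arrays well above every EDRE array and the unirradiated mean, while for Cdkn1a the marked EDRE spots lie above the EDRL arrays.

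The promoters of 1 gene of each p53 list that was called in both fits are shown so that the presence of p53 motifs can be read directly (RefSeq annotation, build GRCm38.p6, 250 bases before the transcription start, 5' to 3' on the gene's strand). Each of these genes has a single window in the tables used, while Gdf15, the larger riser, has more than 1. Capitals mark the decamer unit of the p53 response element, searched by its degenerate consensus on both strands.
Ccng1, chr11:40755287-40755536, minus strand: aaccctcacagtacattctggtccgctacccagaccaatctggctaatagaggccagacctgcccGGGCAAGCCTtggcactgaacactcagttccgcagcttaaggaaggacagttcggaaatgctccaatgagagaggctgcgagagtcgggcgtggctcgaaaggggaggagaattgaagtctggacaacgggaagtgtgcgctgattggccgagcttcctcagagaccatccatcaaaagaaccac
Fas, chr19:34290409-34290658, plus strand: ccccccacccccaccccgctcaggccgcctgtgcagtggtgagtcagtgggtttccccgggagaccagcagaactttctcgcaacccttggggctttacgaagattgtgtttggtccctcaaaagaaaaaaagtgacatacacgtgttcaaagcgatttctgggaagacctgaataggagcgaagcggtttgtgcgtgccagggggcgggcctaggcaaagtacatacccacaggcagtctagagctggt
The Ccng1 window holds 1 match, beginning at -185 from the start, and the Fas window holds none. Over the arrest, repair and feedback list 7 of 21 windows (33.3%) held a match and over the apoptosis list 4 of 15 (26.7%), against 7.13% of all 32851 mouse windows. Over the p53 targets called higher it was 2 of 9 windows (22.2%). A match is a description of letters and says nothing of binding, and many p53 elements lie outside such short windows.

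Of 34 genes of G2 phase and mitosis tested, 13 fell and none rose over all arrays, 5 fell and none rose within 1 scan time, and the median change was -0.77 over all arrays and -0.64 within the scan time. With marked spots kept, 21 of the 34 (61.8%) had all 3 EDRL arrays below all 3 EDRE arrays, against 18.6% of all probes tested. At an unadjusted p under 0.05 limma had 1 higher and 19 lower, and the methods' t-test 0 and 6 of 15. The summed signal of the list, in units of the array's 75th percentile, was 442, 775 and 693 on EDRE replicates 1 to 3 and 307, 302 and 303 on the EDRL arrays. The EDRL arrays lay close to each other and below each EDRE array, and the gap to EDRE replicate 1 was the smallest. Of the 34 genes, 19 rest on EDRE replicate 1 alone.

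Plk1, the kinase that drives entry into and passage through mitosis, stood at 3.43 and 4.78 on EDRE replicates 1 and 3, with a marked spot at 5.47 on replicate 2, and at 2.19, 2.09 and 2.06 on the EDRL arrays. The fall was -1.99 (SE 0.29, adjusted p = 0.00138) over all arrays and -1.32 (adjusted p = 0.00651) within 1 scan time. The unirradiated mean of 3.44 lay at EDRE replicate 1. Cenpf, a kinetochore protein, stood at -2.62 and -3.01 on EDRE replicates 1 and 3, with a marked spot at -2.46 on replicate 2, and at -4.57, -4.21 and -4.71 on the EDRL arrays. It fell by 1.68 on the log2 scale (SE 0.27, adjusted p = 0.00375) and by 1.88 within 1 scan time (adjusted p = 0.00771). Cdc25c, the phosphatase that activates Cdk1 at mitotic entry, stood at -0.14 on EDRE replicate 1 and between -1.50 and -1.45 on the EDRL arrays, a change of -1.34 (SE 0.27, adjusted p = 0.0125). Its marked EDRE spots (0.45 and 0.55) were also above all EDRL arrays.

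Mki67, a coat protein of mitotic chromosomes used as a proliferation marker, had unmarked EDRE spots on replicate 1 alone. It stood at 3.98 there and at 2.67, 3.12 and 3.04 on the EDRL arrays, and had no value without EDRE replicate 1. It fell by 1.04 (SE 0.30, adjusted p = 0.0448), a call lost when any single array but EDRE replicate 1 was left out (adjusted p 0.0664 to 0.119). Espl1, the separase that splits sister chromatids, fell by 1.01 (SE 0.22, adjusted p = 0.0167), from 3.79 on EDRE replicate 1 to 2.65, 2.87 and 2.83. Without EDRL replicate 1 its change was -0.94, under the limit. These 5 genes were the ones called in both fits. Plk1, Cenpf and Cdc25c kept the call with each array left out in turn where a value could be had.

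The remaining 8 mitosis genes were called over all arrays and not within 1 scan time. Bub1b, a spindle checkpoint kinase, differed by -1.92 (adjusted p = 0.00194) over all arrays and by -0.97 (adjusted p = 0.0256) within the scan time. Cdc20, which activates the anaphase-promoting complex, stood at 3.95, 6.0 and 5.47 on the EDRE arrays and at 3.27, 3.21 and 3.1 on the EDRL arrays. The change from EDRE replicate 1 alone was -0.76 (adjusted p = 0.0619), against -1.95 (adjusted p = 0.00517) over all arrays. Kif2c, Cdc25b, Prc1 and Pttg1 had changes of -1.54 to -1.07 over all arrays and of -0.85 to -0.55 within the scan time, and Ttk and Tpx2 were called through other probes (-1.25 and -1.37). Bub1b, Cdc20 and Kif2c kept their calls with each array left out in turn. Those of Prc1 and Pttg1 were lost without EDRE replicate 3 (-0.70 and -0.55) or any EDRL array (adjusted p 0.0612 to 0.0678 and 0.0507 to 0.0599), and that of Cdc25b without EDRE replicate 2 (-0.90), EDRL replicate 1 (adjusted p = 0.0511) or EDRL replicate 2 (adjusted p = 0.0548). Ccnb1 (cyclin B1) differed by -0.81 (adjusted p = 0.0421), Ccna2 by -0.73 (adjusted p = 0.0532) and Top2a by -0.99 (adjusted p = 0.0373, and -0.20 within the scan time), below the limit. Cdk1 had a positive difference that missed the threshold (1.18, adjusted p = 0.0919). EDRE replicates 2 and 3 read -6.55 and -5.99, both not well above background, and EDRE replicate 1 (-4.08) lay just above the EDRL arrays (-4.12, -4.49 and -4.46). The list's count of 13 became 4 without EDRE replicates 2 and 3, and the count of 5 within the scan time became 3 without EDRL replicate 2 or EDRL replicate 3.

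**Figure D3:**
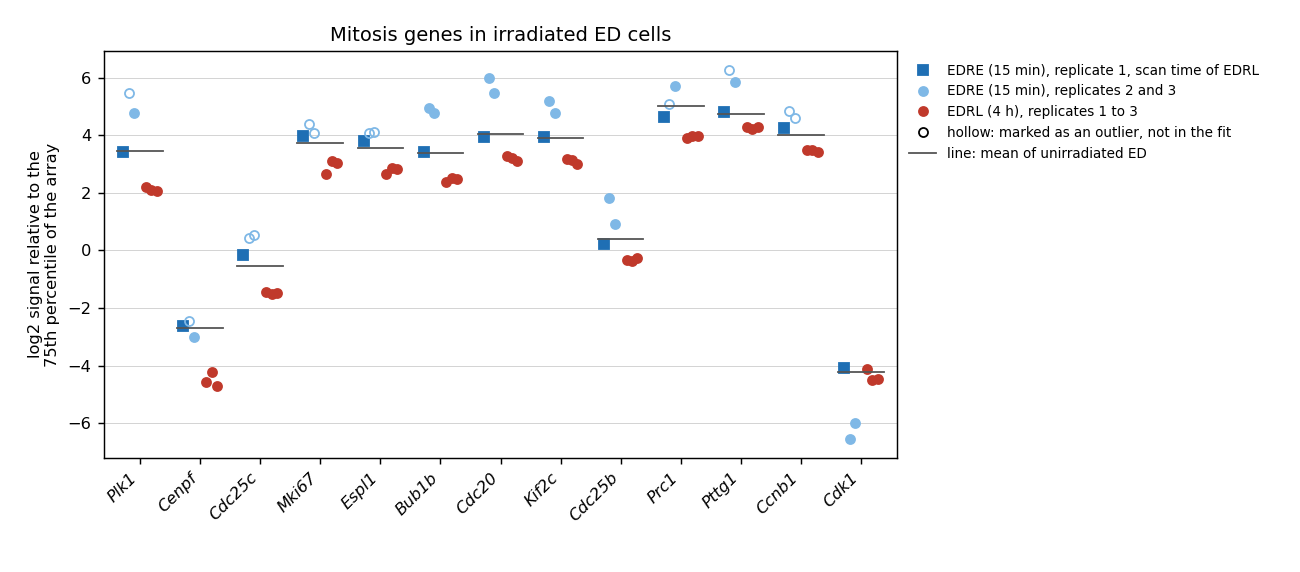
Level of 13 mitosis genes on each array (y axis, log2 signal relative to the array's 75th percentile). Squares are EDRE replicate 1, light circles EDRE replicates 2 and 3 and red circles the EDRL arrays, hollow symbols are outlier-marked spots that were not fitted, and the short line is the mean of unirradiated ED cells. For most genes the EDRL arrays lie below EDRE replicate 1 and farther below EDRE replicates 2 and 3, with Cdk1 as the exception.

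Promoters of 4 mitosis genes called in both fits are printed because the family is known for its CHR and CCAAT elements (RefSeq, GRCm38.p6, 250 bases before the start, gene's strand). Capitals mark TTTGAA or TTTAAA, the CHR letters, and CCAAT or its reverse complement ATTGG, each searched on both strands.
Plk1, chr7:122159185-122159434, plus strand: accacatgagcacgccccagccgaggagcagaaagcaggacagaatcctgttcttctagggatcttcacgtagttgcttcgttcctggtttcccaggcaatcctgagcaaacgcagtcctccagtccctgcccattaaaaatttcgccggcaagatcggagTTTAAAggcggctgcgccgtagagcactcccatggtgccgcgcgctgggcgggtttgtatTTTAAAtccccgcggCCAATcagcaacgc
Cenpf, chr1:189688087-189688336, minus strand: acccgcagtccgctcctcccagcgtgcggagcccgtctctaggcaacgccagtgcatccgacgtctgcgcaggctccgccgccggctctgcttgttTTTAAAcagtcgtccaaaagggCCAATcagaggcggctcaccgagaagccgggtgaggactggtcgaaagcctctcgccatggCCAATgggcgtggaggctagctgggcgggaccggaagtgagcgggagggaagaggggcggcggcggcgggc
Mki67, chr7:135716380-135716629, minus strand: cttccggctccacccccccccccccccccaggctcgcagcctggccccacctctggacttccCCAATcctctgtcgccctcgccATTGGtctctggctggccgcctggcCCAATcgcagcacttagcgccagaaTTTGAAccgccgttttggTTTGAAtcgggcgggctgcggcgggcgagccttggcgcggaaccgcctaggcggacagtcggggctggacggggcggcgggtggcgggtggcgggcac
Espl1, chr15:102296043-102296292, plus strand: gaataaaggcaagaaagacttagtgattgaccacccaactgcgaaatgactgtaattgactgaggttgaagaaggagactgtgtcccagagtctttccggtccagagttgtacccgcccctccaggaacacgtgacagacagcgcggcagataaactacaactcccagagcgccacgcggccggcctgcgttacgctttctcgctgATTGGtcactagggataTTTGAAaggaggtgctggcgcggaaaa
In Plk1 the CHR letters begin at -89 and -29 and a CCAAT at -14. Cenpf has a CHR at -154 and CCAAT boxes at -132 and -71, Mki67 has CHR letters at -116 and -98 with CCAAT boxes at -188, -166 and -141, and Espl1 has a CHR at -27 and a CCAAT at -44. Over the 33 windows of 31 mitosis genes, 17 (51.5%) held a CHR, 25 (75.8%) a CCAAT box and 15 (45.5%) both. In all 32851 windows the shares were 25.2%, 33.8% and 8.78%. Of the 12 windows of mitosis genes called lower, 7 (58.3%) held a CHR and 10 (83.3%) a CCAAT box. The 47 windows of DNA replication genes held a CHR in 23.4% and a CCAAT box in 55.3%. The motif and the change were not tested against each other.

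DNA replication genes were also mostly lower in value. Of 40 tested, 33 had a negative change, 6 fell and none rose over all arrays, with a median of -0.38. With marked spots kept, 17 of the 40 (42.5%) had all EDRL arrays below all EDRE arrays, and 1 (2.5%) had them above. Over all probes tested these shares were 18.6% and 12.9%. At an unadjusted p under 0.05 limma had 0 higher and 12 lower, and the methods' t-test 0 and 1 of 16. Only Ung, a uracil-DNA glycosylase that removes uracil from DNA, was called within 1 scan time. Ung stood at 0.72 on EDRE replicate 1, with marked spots at -0.70 and -0.13, and at -1.36, -1.67 and -2.09 on the EDRL arrays. The unirradiated mean was 0.70. Ung fell by 2.42 (SE 0.37, adjusted p = 0.00469, and 0.00351 within 1 scan time), and a second probe changed by -1.83 without passing the test (adjusted p = 0.0628). Ccne1, the cyclin of the G1 to S transition, stood at 1.76, 3.21 and 2.83 on the EDRE arrays and at 0.92, 0.94 and 0.96 on the EDRL arrays. It fell by 1.66 (SE 0.27, adjusted p = 0.00228), and the difference from EDRE replicate 1 was -0.82 (adjusted p = 0.0257). The licensing factor Cdt1 (-1.30), the helicase subunit Mcm6 (-1.11), the origin recognition subunit Orc2 (-1.22) and the polymerase subunit Pold3 (-1.09) were called over all arrays and had differences of only -0.35, -0.22, -0.27 and -0.58 from EDRE replicate 1. The calls of Cdt1, Mcm6 and Orc2 were lost without any single array but EDRE replicate 1 (adjusted p 0.0507 to 0.106), and that of Pold3 without EDRE replicate 2 (-0.58) or EDRL replicate 1 (-0.99). The count of 6 became 2 without EDRE replicate 2 or without EDRL replicate 1, and 3 without EDRE replicate 3 or either of the other EDRL arrays. Under the normexp background correction the list's median lay 0.22 above that of all probes instead of below it.

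Among damage sensing and double-strand break repair genes, 3 of 42 fell and 1 rose over all arrays, and none was called within 1 scan time, where 2 had a positive and 7 a negative change at an unadjusted p under 0.05. The methods' t-test on all arrays found 4 lower and 0 higher at an unadjusted p under 0.05 among the 19 it could test. With marked spots kept, 19 of the 42 (45.2%) had all EDRL arrays below all EDRE arrays, and 2 (4.76%) had them above. Over all probes tested these shares were 18.6% and 12.9%. Of all genes tested 3.98% were called higher and 3.85% lower over all arrays. Atrip, the partner of the kinase ATR, fell by 1.32 (adjusted p = 0.00731), with -0.64 (adjusted p = 0.218) within the scan time. Rnf168, a ubiquitin ligase at breaks, and Exo1, a nuclease of end resection, fell by 1.02 (adjusted p = 0.0398) and 1.06 (adjusted p = 0.0279). Rnf168 lost its call without any single array but EDRE replicate 1 (adjusted p 0.0759 to 0.172) and Exo1 without EDRE replicate 2, EDRE replicate 3, EDRL replicate 1 or EDRL replicate 2 (adjusted p 0.0642 to 0.11). The rise of Rad51d, a recombination protein (2.94, adjusted p = 0.00248), rests on a single dim EDRE array and had no value within the scan time. Its marked spot on EDRE replicate 1 stood at -1.21, above the EDRL arrays (-1.99 and -2.38). Lower calls numbered 9 without EDRE replicate 1 and 1 without EDRE replicate 2, EDRE replicate 3, EDRL replicate 1 or EDRL replicate 2, and higher calls 6 without EDRE replicate 1 and 0 without EDRE replicate 2.

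Immediate early genes, whose transcripts usually peak within the first hour after a stimulus, were split. Of 26 tested, 2 rose and 4 fell, and within 1 scan time 2 rose and 1 fell. Klf6, a zinc finger factor, stood at 3.01, 4.18 and 4.04 on the EDRE arrays and at 2.26, 1.86 and 2.08 on the EDRL arrays. It fell by 1.68 (adjusted p = 0.00112) over all arrays and differed by -0.95 from EDRE replicate 1 (adjusted p = 0.0248). Egr1, a growth factor-responsive transcription factor, stood at 1.69, 2.65 and 2.40 at 15 min and at 0.97, 1.03 and 1.17 at 4 h, all above the unirradiated mean of 0.57. The fall of Egr1 was -1.19 (adjusted p = 0.00834) over all arrays, with -0.63 (adjusted p = 0.263) within 1 scan time and -0.99 without EDRE replicate 2. Ccn1, a secreted matrix protein, fell by 1.09 (adjusted p = 0.0217) on EDRE replicate 1 (0.45 against -0.52 to -0.80), but its marked spots on the other EDRE arrays (-0.74 and -1.11) overlapped the EDRL arrays. Without EDRL replicates 1, 2 and 3 in turn the adjusted p of Ccn1 was 0.0505, 0.0627 and 0.0704. Fosl2 was called over all arrays (-1.49, adjusted p = 0.0328) and differed by -0.10 within the scan time, and its call was lost without any single array but EDRE replicate 1 (adjusted p 0.0878 to 0.148). Fos differed by -0.18 (adjusted p = 0.725), and by 0.26 within the scan time.

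Dusp6, the phosphatase that inactivates ERK, rose by 1.26 (adjusted p = 0.00401). Dusp6 stood at 2.26 on EDRE replicate 1 and at 3.59, 3.52 and 3.45 on the EDRL arrays, and at 3.32 in unirradiated cells. The 4 h arrays thus lay near the unirradiated mean. The lower 15 min level rests on EDRE replicate 1 alone, as the spots of the other EDRE arrays were marked and left out. Ier3, an early response gene that modulates survival, rose by 1.13 (adjusted p = 0.0425), from 2.95 on EDRE replicate 1 to 4.21, 4.04 and 3.98, a call lost without any single array but EDRE replicate 1 (adjusted p 0.0633 to 0.108). Its marked spots on the other EDRE arrays (3.42 and 3.30) lay below the EDRL arrays, and without EDRE replicate 1 Ier3 had no value. Leaving out single arrays took the immediate early count from 2 to 1 higher (without EDRE replicate 2, EDRL replicate 1 or EDRL replicate 3) and from 4 to 2 lower (without EDRE replicate 2 or any EDRL array). Within the scan time the 2 higher became 1 without any EDRL array, and the 1 lower became 0 without EDRL replicate 2 or 3.

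Of 22 NF-kB targets, cytokines and chemokines tested, 2 rose and none fell over all arrays, and the median change was 0.43. With marked spots kept, 13 of the 22 (59.1%) had all EDRL arrays above all EDRE arrays, against 12.9% of all probes tested. Icam1, an adhesion molecule for leukocytes, stood at -4.50, -4.87 and -5.29 on the EDRE arrays and at -3.73, -3.44 and -3.65 on the EDRL arrays. On the EDRE arrays only replicate 1 was well above background, so the difference from replicates 2 and 3 is read against background. It rose by 1.28 (adjusted p = 0.01), and its difference from EDRE replicate 1 was 0.89 (adjusted p = 0.173). Traf1, a signalling adaptor of TNF receptors that was also above background on EDRE replicate 1 alone of its group, was called over all arrays (1.46, adjusted p = 0.0152) but differed by 0.40 (adjusted p = 0.473) within 1 scan time, and its call was lost without any single array but EDRE replicate 1 (adjusted p 0.0517 to 0.0715). No member was called within 1 scan time by limma, where 6 were higher and 0 lower at an unadjusted p under 0.05, and the methods' t-test on all arrays had 3 higher and 1 lower of 12 at an unadjusted p under 0.05. The count of 2 was 6 without EDRE replicate 1, 1 without EDRE replicate 2 or 3, and 0 without both of the latter.

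In the interferon response list 3 of 24 rose, none fell (5 higher and 2 lower at an unadjusted p under 0.05 by limma, and 2 and 0 of 14 by the methods' t-test), and the median was -0.08 beside the -0.11 of all probes. Oas1f, of the family of double-stranded RNA sensors, stood at -6.27, -6.55 and -7.33 on the EDRE arrays, where it was well above background on replicate 1 only, and at -3.15, -3.22 and -3.30 on the EDRL arrays. It rose by 3.05 within 1 scan time (adjusted p = 0.000157), where it was the only member called. The value over all arrays, 3.49 (SE 0.30, adjusted p = 1.39e-05), is in part read against background. Oas1d was called (2.73, adjusted p = 0.000588) against EDRE replicates 2 and 3 only, where it was not well above background, and its marked spot on EDRE replicate 1 (-3.69) lay among the EDRL arrays (-3.83 to -3.65). Oasl2 (2.08, adjusted p = 0.0487) differed by -0.04 from EDRE replicate 1, and its adjusted p was 0.109 to 0.195 without any other single array. Without EDRE replicates 2 and 3 the count of 3 became 1. Of 8 EGF receptor ligands and receptors, the ligand Epgn fell by 1.58 (adjusted p = 0.00344, and -0.99 with adjusted p = 0.128 within the scan time). Within 1 scan time the ligand Btc (1.26, adjusted p = 0.0029) and the receptor Egfr (1.31, adjusted p = 0.0216) were called higher, while a second Egfr probe differed by -0.61 (adjusted p = 0.0814) over all arrays.

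Of the subunits and regulators of PP2A, a phosphatase of the damage response, 1 of 14 rose and 2 fell over all arrays and none was called within 1 scan time, where 1 was higher and 1 lower at an unadjusted p under 0.05. The methods' t-test on all arrays found 0 higher and 1 lower of 8 at an unadjusted p under 0.05. The catalytic subunit Ppp2ca stood at 3.37 on EDRE replicate 1 and at 3.09, 3.33 and 3.44 on the EDRL arrays. It differed by -0.09 (SE 0.39, adjusted p = 0.917), and the second catalytic subunit Ppp2cb by 0.02 (adjusted p = 0.978). The regulatory subunit Ppp2r5e stood at 1.08, 2.77 and 2.14 on the EDRE arrays and at 0.48, 0.57 and 0.36 on the EDRL arrays. It fell by 1.53 (adjusted p = 0.00764), with -0.61 (adjusted p = 0.235) within the scan time. Ptpa, an activator of PP2A, fell by 1.08 (adjusted p = 0.0313) and differed by -0.11 within the scan time, a call lost without any single array but EDRE replicate 1 (adjusted p 0.0852 to 0.138). The higher call, Ppp2r5d, rests on EDRL replicate 3 alone, and its marked spot on EDRE replicate 1 (0.49) was close to that array (0.52). The higher count became 0 without EDRE replicate 3 or any EDRL array.

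Ribosomal protein genes showed 4 lower calls of 74 over all arrays and none within 1 scan time, where 0 were higher and 2 lower at an unadjusted p under 0.05. The methods' t-test on all arrays had 0 higher and 4 lower of 30 at an unadjusted p under 0.05. With marked spots kept, 29 of the 74 (39.2%) had all EDRL arrays below all EDRE arrays, and 2 (2.7%) had them above. Over all probes tested these shares were 18.6% and 12.9%. Of all genes tested 3.85% were called lower over all arrays. The genes called lower by limma included Rpl37 (-1.19), Rpl41 (-1.0) and Rps15a (-1.51), which differed by -0.09 to -0.99 from EDRE replicate 1. Without EDRE replicate 1 the count was 21, and without any other single array it was 1, Rps15a. No member of the integrated stress response (18 tested), heat shock (10) or Nrf2 and antioxidant (14) lists was called by limma in either fit. Over all arrays and at an unadjusted p under 0.05, 2, 1 and 0 members were higher and 4, 2 and 3 were lower in these lists, and the methods' t-test had 0 of 9, 0 of 1 and 0 of 7. The stress factor Atf4 differed by -0.85 (adjusted p = 0.0959, and 0.01 within the scan time), the heme oxygenase Hmox1 by -0.36 (0.14 within) and the chaperone Hspa1a by 0.11.

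**Figure D4:**
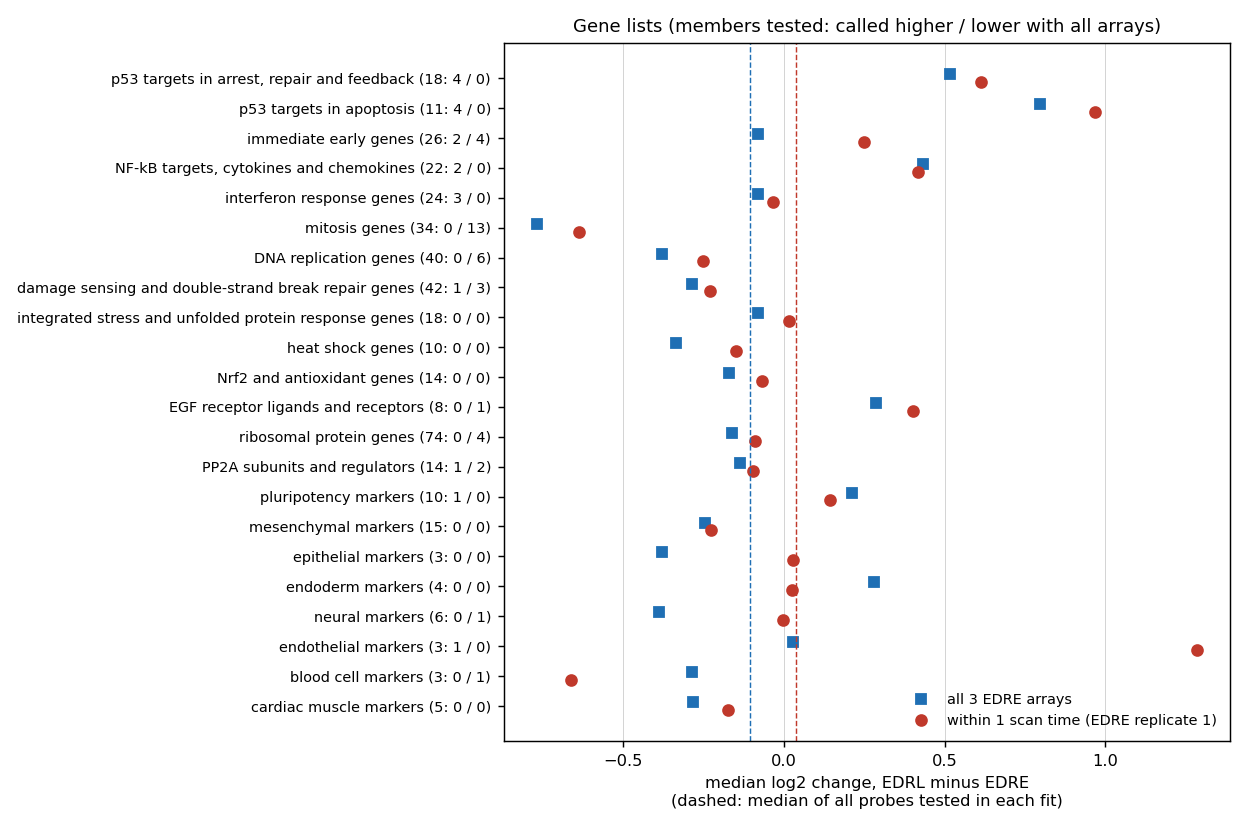
Median log2 change from 15 min to 4 h in irradiated ED cells for each gene list (x axis), with squares for all 6 arrays and circles within 1 scan time. Dashed lines are the medians of all probes tested (-0.107 and 0.036), and the labels give the genes tested and the numbers called higher and lower over all arrays. The p53 lists lie to the right of the dashed lines and the mitosis list farthest to the left among the larger lists.

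The labelled cell state was checked against markers. Pou5f1 (Oct4), which maintains pluripotency, stood at -3.54 in unirradiated ED cells against 6.73 in ES cells, and Nanog and Zfp42 were not well above background throughout either irradiated ED group. Sox2, a pluripotency and neural factor, was at 2.43 to 3.55 on the EDRE arrays and 2.51 to 2.67 on the EDRL arrays. Dppa4, Esrrb, Klf2 and Tbx3 of the pluripotency list were also well above background on all 6 arrays. Of its 18 members, 13, 5 and 5 were well above background on EDRE replicates 1 to 3, and 12, 11 and 10 on the EDRL arrays. Mesenchymal genes were strong, with Vim (vimentin) at 7.66 to 7.95 on EDRE arrays and 7.08 to 7.71 on EDRL arrays. The summed mesenchymal signal was 588 to 663 on EDRE arrays and 529 to 637 on EDRL arrays, with 15, 13 and 14 of 16 members well above background on the EDRE arrays and 15 of 16 on each EDRL array, and no member was called in either fit. At an unadjusted p under 0.05, 1 of its 15 tested members was higher and 2 were lower over all arrays, and the methods' t-test found 0 of 6.

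Summed signals of the pluripotency list were 7.31, 14.8 and 13.6 on EDRE replicates 1 to 3 and 7.77 to 8.49 on EDRL arrays, and those of the neural list 8.58, 15.9 and 17.4 against 8.94 to 9.77. In both lists EDRE replicate 1 lay at or beside the EDRL arrays and replicates 2 and 3 apart. Epithelial (0.667 to 1.08 against 0.620 to 0.698), endoderm (0.940 to 1.01 against 0.913 to 1.01), blood cell (0.183 to 0.320 against 0.182 to 0.220) and cardiac muscle (0.293 to 0.366 against 0.242 to 0.307) sums overlapped between the groups or lay close together. Epcam, Ttr and Ptprc were not well above background throughout either group. Other members of these lists were well above background on all 6 arrays. They included Krt8, Krt19 and Cldn6 (epithelial), Gata4 and Gata6 (endoderm), Hba-a1 (blood cell) and Nkx2-5 (cardiac muscle). Whether such cells were present was not tested. Endothelial sums were 0.0796, 0.205 and 0.142 on EDRE and 0.403, 0.275 and 0.282 on EDRL arrays. Within that list Tek, the angiopoietin receptor, stood at -4.18, -3.54 and -3.66 on the EDRE arrays and at -1.49, -2.12 and -2.06 on the EDRL arrays. Tek rose by 1.91 (SE 0.21, adjusted p = 0.00013) and by 2.29 within 1 scan time (adjusted p = 0.000662), Kdr was called within the scan time only (1.29, adjusted p = 0.0115), and Pecam1 was not well above background throughout either group. Pou5f1, well above background on EDRE replicate 1 alone of its group, was called higher over all arrays (1.58, adjusted p = 0.00405) but not within the scan time (0.82, adjusted p = 0.12), the neural gene Pax6 lower (-1.39, adjusted p = 0.036, against -0.25, and lost without any single array but EDRE replicate 1 at adjusted p 0.0859 to 0.112), and the lysozyme gene Lyz2 lower (-1.99, adjusted p = 0.00609, against -1.47 with adjusted p = 0.175). The part of cell makeup in the other results was not tested.

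Among rises that met the rule given next, the largest was that of NM_007955, a RefSeq transcript that could not be paired with a gene symbol here. It stood at -2.67, -2.96 and -3.33 on the EDRE arrays and at 1.07, 1.01 and 1.07 on the EDRL arrays. The EDRE arrays lay at the unirradiated mean of -2.79. The rise was 4.04 (SE 0.16, adjusted p = 6.49e-09), or 16.4-fold, and 3.72 within 1 scan time (adjusted p = 3.72e-06). The rule asked for a call, signal well above background on all 6 arrays, no overlap between the groups among unmarked spots, and a difference of more than 1 from EDRE replicate 1 in the same direction. It was met by 148 rises and 68 falls, and the 12 largest of each direction are the genes named by it.

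Cd55, which protects cells from complement, stood at -1.22 and -2.18 on EDRE replicates 1 and 2, with a marked spot at -2.58 on replicate 3, and at 0.94, 0.96 and 0.91 on the EDRL arrays. It rose by 2.64 (SE 0.28, adjusted p = 0.00239) and by 2.16 within 1 scan time (adjusted p = 0.00181). Plek2, a pleckstrin family protein of the actin cytoskeleton, rose by 2.57 (adjusted p = 0.000118, and 2.16 within 1 scan time), and Zfpm1, a cofactor of GATA factors also called FOG1, by 2.27 (SE 0.21, adjusted p = 4.65e-05, and 1.75 within). Zfpm1 stood at -1.87, -2.77 and -2.52 at 15 min, at 0.01, -0.11 and -0.25 at 4 h and at -2.19 before IR. Etnk2, an ethanolamine kinase, stood at -6.19, -4.17 and -4.57 on the EDRE arrays and at -2.28, -2.58 and -2.43 on the EDRL arrays. It rose by 2.54 (adjusted p = 0.0011), and its rise from EDRE replicate 1 was larger at 3.76 (adjusted p = 3.72e-06). Col10a1, a collagen of hypertrophic cartilage, rose by 2.54 (adjusted p = 0.00966), a call lost without EDRE replicate 2 (1.74, adjusted p = 0.0921). B4galt1, a galactosyltransferase, rose by 2.66 (SE 0.48, adjusted p = 0.00829) from -2.17 on EDRE replicate 1 to 0.62, 0.22 and 0.66. However its marked spots on EDRE replicates 2 and 3 (0.72 and 0.46) and the unirradiated mean (0.66) lay with the EDRL arrays, so that EDRE replicate 1 stood alone. The other rises of the 12 were Fas and 4 unnamed transcripts (uc008puw, AK054278, uc008xkj and AK162538) with changes of 2.36 to 2.69, of which AK162538 (2.36, adjusted p = 0.0454) lost its call without any single array but EDRE replicate 2 (adjusted p 0.0663 to 0.12).

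The falls were led by Ung, described above, and the unnamed AK012671 (-2.42, adjusted p = 0.000196, and -1.77 within 1 scan time). Cabyr, a calcium-binding protein first known from sperm tails, stood at -4.37, -4.07 and -3.20 on the EDRE arrays and at -6.17, -6.24 and -6.24 on the EDRL arrays. The unirradiated mean, from arrays of another scan time, was -6.28. The 4 h arrays lay near it and the 15 min arrays stood above both. Cabyr fell by 2.34 (SE 0.30, adjusted p = 0.00045) and by 1.85 within 1 scan time (adjusted p = 0.0182), and all 5 of its probes were called lower over all arrays (-2.34 to -1.53). Pygm, the muscle glycogen phosphorylase, stood at -3.11, -2.23 and -2.29 at 15 min and at -4.59, -4.87 and -4.78 at 4 h. Its fall was -2.20 (SE 0.23, adjusted p = 8.18e-05), and -1.64 within 1 scan time (adjusted p = 0.000938). The unnamed transcript AK041689 stood at -2.16 and -1.09 on EDRE replicates 1 and 2 and at -3.62, -3.85 and -3.62 on the EDRL arrays, near the unirradiated mean of -3.93, and fell by 2.07 (adjusted p = 0.00567). BC004592 fell by 2.26 (adjusted p = 0.00362), and by 1.26 within the scan time (adjusted p = 0.0474). The deubiquitinase gene Usp17lc (-2.22, adjusted p = 0.0168) was not called within the scan time (-1.49, adjusted p = 0.352). The other 5 falls (AK050672, AK048568, uc009cpt, uc007vzq and AK008901) were of unnamed transcripts, between -2.24 and -2.07. Usp17lc lost its call without EDRE replicate 2, EDRL replicate 1 or EDRL replicate 2 (adjusted p 0.0559 to 0.0778), AK050672 without any single array but EDRE replicate 1 (0.0554 to 0.0819) and AK041689 without EDRE replicate 2 (0.0565). With each array left out in turn, 45 of the 82 genes named for this comparison kept their call where a value could be had. These include genes that rest on EDRE replicate 1 alone, such as Fas and Ung, whose 15 min level was not probed in this way.

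**Figure D5:**
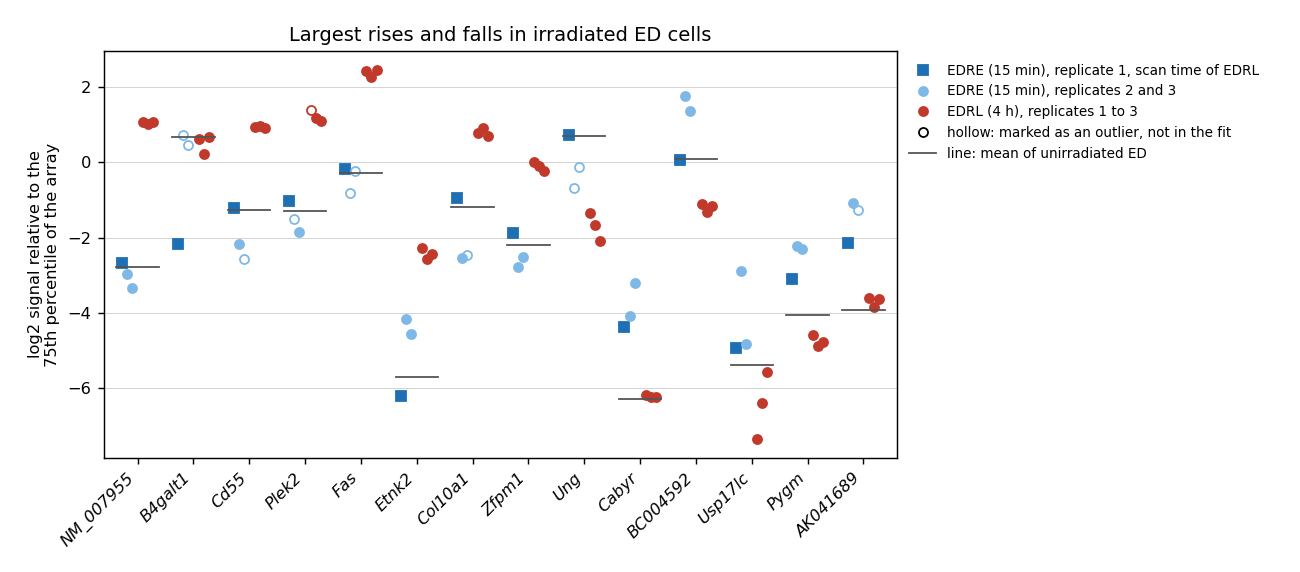
Level on each array (y axis, log2 signal relative to the array's 75th percentile) of 14 genes among the largest rises and falls with signal above background on all 6 arrays. Squares are EDRE replicate 1, light circles EDRE replicates 2 and 3 and red circles the EDRL arrays, hollow symbols are outlier-marked spots that were not fitted, and the short line is the mean of unirradiated ED cells. For NM_007955 and Zfpm1 the EDRE arrays lie near the unirradiated mean, and for Cabyr and AK041689 the EDRL arrays do. The unirradiated arrays have another scan time. For B4galt1 EDRE replicate 1 stands alone.

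Genes that were not well above background on any EDRE array have only a bound, taken against the lowest signals that were well above background on those arrays. Rai2, a transcriptional coregulator, was at least 6.11-fold higher at 4 h (adjusted p = 0.00122, and 0.0011 within 1 scan time), although a second probe was called only within the scan time. The unnamed transcripts AK003981, uc009ufn, uc007bmk and uc009lor were at least 5.14-, 2.97-, 2.77- and 2.57-fold higher. The bounds of these 5 rises differed between the EDRE arrays, at 11.0- to 26.1-fold against replicate 1 and 1.24- to 2.96-fold against replicates 2 and 3. In the other direction NM_001134674, AK020637 and NM_176993 were at least 8.77-, 6.70- and 2.67-fold lower over all arrays, but these bounds came from the dim EDRE arrays. NM_001134674 stood at -7.0, -1.75 and -4.19 on the EDRE arrays and AK020637 at -7.0, -2.38 and -4.63, and their bounds against EDRE replicate 1 were 1.36- and 1.34-fold. NM_176993 stood at -7.55 on EDRE replicate 1, below EDRL replicate 3 (-7.27), so its groups overlapped and no bound existed there. None of these 3 was called within the scan time (adjusted p 0.154 to 0.564). NM_001134674 lost its call without any single array but EDRE replicate 1 (adjusted p 0.0628 to 0.105), AK020637 without any but EDRE replicate 1 and EDRL replicate 1 (0.065 to 0.09) and NM_176993 without any but EDRE replicate 1 and EDRL replicate 3 (0.0756 to 0.472). Among the rises uc009ufn lost it without EDRE replicate 3 or any EDRL array (0.0551 to 0.0922) and uc009lor without any EDRL array (0.0548 to 0.0908). The transcript 1700007K13Rik falls outside the rule for named genes and was chosen after its values were seen. It was well above background on EDRE replicate 1 only (-4.81, with -6.55 and -7.25 on replicates 2 and 3) and stood at -0.15, -0.03 and -0.01 on the EDRL arrays, against -5.23 in unirradiated cells. Against EDRE replicate 1 its rise was 4.75 (adjusted p = 4.45e-06). The value over all arrays, 6.14 (SE 0.42, adjusted p = 2.88e-06), is in part read against background.

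The change from 15 min to 4 h was also compared with that of irradiated ES cells, by the difference of the 2 changes in the same fit. The differences given here are over all arrays. A fit of the difference with scan time as a fixed block was run as an alternative and is described in the closing section. The irradiated ES arrays were not alike either. ESRL replicate 1 was dimmer, with a 75th percentile signal of 1900 against 2725 to 3266 on the other ESRE and ESRL arrays. It had 63.3% of probes well above background and a scan time of its own. ESRE replicate 3 shared its scan time with the unirradiated ED arrays, and the remaining ESRE and ESRL arrays shared another. Of 24131 genes tested, the change was more positive in ED cells for 859 (3.56%) and more negative for 580 (2.4%). Among the p53 targets, Gdf15 rose in ED cells by 2.45 and differed by 0.39 in ES cells, a difference of 2.06 (adjusted p = 0.000306). Fas (2.55 against 0.88, difference 1.68, adjusted p = 0.0216) and Perp (1.90 against 0.45, difference 1.46, adjusted p = 0.00451) also differed. The 3 mitosis genes with differences given next had more negative changes in ED cells. Plk1 changed by -1.99 in ED cells and by -0.39 in ES cells (adjusted p = 0.0325 for the difference of -1.60), Cenpf by -1.68 and 0.23 (adjusted p = 0.0171 for -1.92) and Cdc25c by -1.34 and 0.55 (adjusted p = 0.0109 for -1.89). Among genes above background on all 12 arrays the largest positive difference was that of B4galt1 (6.72, adjusted p = 0.000426), with the isolated EDRE replicate 1 noted above. The positive difference of NM_001100608 (6.38) rests on 1 dim EDRE array, and its marked spot on EDRE replicate 1 (6.70) was near its EDRL level. The negative differences included Cabyr (-2.64, adjusted p = 0.00427), Pygm (-2.50, adjusted p = 0.000929) and Prl2c2, of the prolactin family (-2.45, adjusted p = 0.0216, and 0.0527 without EDRL replicate 1 or 0.0552 without ESRE replicate 2). For Prl2c2 EDRE replicate 1 (-2.23) stood at the EDRL level (-2.46 to -2.24), the ED change within 1 scan time was -0.10, and the difference was -1.46 without EDRE replicate 2. Leaving out 1 array at a time, the more positive calls ranged from 375 without ESRE replicate 2 to 2535 without EDRE replicate 1, and the more negative calls from 222 to 3866, the lowest without ESRE replicate 2 and the highest without EDRE replicate 1. Without ESRL replicate 2 they were 2329 and 1145.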

How the data were processed

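Total RNA was labelled with Cy3 and hybridized to Agilent one-colour arrays of a custom design, 1 array per sample, with 18 arrays in 6 groups of 3. The authors deposited scanner files whose intensity columns (processed signal, already background-subtracted) and spot flags were made with Agilent Feature Extraction, version 10.7.3.1 per the file headers and 9.1 per the labels. The deposited log2 matrix of 30133 rows matched these intensities, with low signals raised to a floor, up to an offset for each array and served as an alternative. Each array has 39448 spots, of which 1417 controls and 200 unmarked negative controls were left out, leaving 37246 probes, 22212 of them named from RefSeq tables by accession.

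Levels are log2 of the processed signal minus the 75th percentile of the array. Spots marked as outliers were left out of the fits, spots of a probe were averaged, and a probe was tested if every array of either group compared had it flagged well above background, by 50% or more of its spots. All 18 arrays were fitted in 6 groups with limma 3.58.1 in R 4.3.3 (lmFit, eBayes, Benjamini-Hochberg over all probes tested), as the study's methods give no model for the arrays. The two-sided t-test that the study names for its statistics in general was run as an alternative. A gene counts as called where any of its probes is, and a list member is described by 1 probe (any other probe is named as such). The fit within 1 scan time adds scan time, read from the file headers, as a fixed term, so that the contrast rests on the 3 EDRL arrays and EDRE replicate 1. In simulated data 200 of 24167 probes were changed. On the log2 scale the fit of EDRL against EDRE recovered 74.7% of 95 testable changes of 2 and 97.8% of 92 of 3. There were 9 false calls. The simulated noise was independent and of equal spread on every array, without a scan time effect or dim arrays. The simulation therefore does not measure the rate of false calls in the real arrays. The number of arrays limits the precision.

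Named genes are the 12 largest rises and 12 largest falls under the rule given in the text, the 5 largest bounds in each direction (3 falls qualified), the 5 largest differences from ES cells in each direction, and members of the gene and marker lists (479 of 483 list genes were on the array). The members and lists were chosen with earlier results of these data known. Replicate numbers did not pair the arrays (correlations of deviations -0.05, -0.03 and -0.03). No set test was run. Promoter windows and their coordinates are those of RefSeq on GRCm38.p6. The deposited files were given no genome build in the sources used here.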

Additional observations from a re-analysis of the deposited data

Results flagged for a closer look

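The change from 15 min to 4 h after IR differed between ED and ES cells, by limma's test of the difference itself over all arrays, for 55 of the named genes and list members. Values are the log2 change in ED cells minus that in ES cells, each with an adjusted p under 0.05 and a size over 1. More positive in ED cells were B4galt1 (6.72), NM_001100608 (6.38), 1700007K13Rik (5.10), AK154344 (5.05), uc.174+ (5.05), Gm14393 (4.92), Rai2 (3.47), Rad51d (3.14), NM_007955 (2.82), AK054278 (2.69), Oas1f (2.54), Etnk2 (2.32), Zfpm1 (2.31), Sdf2l1 (2.11), Gdf15 (2.06), uc008puw (1.97), Plek2 (1.91), Pou5f1 (1.89), Fas (1.68), Tek (1.63), Relb (1.57), uc008xkj (1.54), Dusp6 (1.54), Icam1 (1.53), Sox17 (1.49), Perp (1.46), Chac1 (1.34) and Egr4 (1.09). More negative in ED cells were Cabyr (-2.64), BC046478 (-2.59), Pygm (-2.50), Lyz2 (-2.47), AK008901 (-2.46), Prl2c2 (-2.45), Dppa3 (-2.39), Ung (-2.38), BC004592 (-2.37), uc007vzq (-2.03), Cdc20 (-2.0), AK041689 (-1.97), AK012671 (-1.93), Cenpf (-1.92), Cdc25c (-1.89), Bub1b (-1.86), Lefty1 (-1.81), AK048568 (-1.80), Ccn1 (-1.79), uc009cpt (-1.69), Ppp2r5e (-1.62), Ccne1 (-1.62), Plk1 (-1.60), Klf6 (-1.55), Kif2c (-1.54), Cdc25b (-1.51) and Cenpe (-1.18). Of these, uc.174+, Gm14393, Prl2c2, Egr4, Relb, Chac1, Sdf2l1, Sox17 and Cenpe were not called in ED cells alone. Dppa3 and Lefty1 were not tested there, as they were not well above background on any EDRE or EDRL array. Their ED changes are read against background. The lowest signals were -6.55 and -7.94 on EDRE replicates 2 and 3 and -10.0 to -9.47 on the EDRL arrays.

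In 4 of the largest positive differences the change in ES cells was larger in size than that in ED cells. For each of the 4 the ESRL mean rests on 2 unmarked arrays. For uc.174+ the ED change was 0.61 and the ES change -4.44, for Gm14393 they were 1.21 and -3.71, for AK154344 1.91 and -3.14, and for B4galt1 2.66 and -4.06. For AK154344 the ED change rests on EDRE replicate 1 (-2.34), and the marked spots of EDRE replicates 2 and 3 (-1.22 and -1.07) lay nearer to the EDRL arrays (-0.51 to -0.33).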

How the results depend on the processing

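The alternatives that leave out EDRE replicates 2 and 3 together, and that combine the scan time block with kept outlier spots, were chosen after seeing the data. Replicate blocks changed no count of EDRL against EDRE by over 1.5 times, but the more negative calls against ES cells went from 580 to 364. Replicates 2 and 3 of EDRE limit detection, with the lowest signal well above background at -4.91 and -5.47 against -8.33 on replicate 1.

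The 878 genes higher at 4 h became 2944 with array weights, 1357 in the deposited matrix, 1771 with outlier spots kept, 318 with detection required on all arrays, 181 with normexp, 53 with only the groups compared fitted, 497, 496 and 450 with scan time as a fixed block, as that block with outliers kept and as a random block, 390 without EDRE replicates 2 and 3, and 5 with the methods' t-test adjusted. Leaving out single arrays gave 385 to 2273. The 849 lower became 3670 with array weights, 2065 with no detection filter, 1639 with normexp, 1457 with no fold limit, 1289 with outliers kept, 553 with quantile normalization, 409 with the 75th percentile of detected probes, 417 and 0 with the methods' t-test unadjusted and adjusted, 111, 105 and 113 with the 3 scan time fits, 81 without EDRE replicates 2 and 3, and 3 with only the groups compared. Leaving out single arrays gave 251 to 3589. In the fit with array weights EDRE replicate 3 had a weight of 9.69, and EDRE replicates 1 and 2 had 0.058 and 0.157. The 2944 and 3670 calls of that fit therefore rest mostly on 1 dim EDRE array. The higher and lower counts split as 181 and 1639 under normexp, 1101 and 553 under quantile normalization and 1095 and 409 under the percentile of detected probes. The median of all probes moved by -0.51 under normexp, -0.10 under the array median and 0.10 under the percentile of detected probes.

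Within 1 scan time the 497 higher became 280 with normexp, and 334 to 336 without single arrays. The 111 lower became 41 with normexp, 35 with only the groups compared, 183 with the array median, 217 with no fold limit, and 67 to 86 without single arrays. The 859 more positive against ES cells became 1814 with array weights, 297 with detection on all arrays, 37 with normexp, 112 with only the groups compared, 514 and 451 with the fixed scan time block without and with outliers kept, and 375 to 2535 without single arrays. The 580 more negative became 2111 with array weights, 2317 in the deposited matrix, 50 with normexp, 61 with only the groups compared, 364 with the replicate block, 1842 with the array median, 182, 160 and 220 with the 3 scan time fits, 231 without EDRE replicates 2 and 3, and 222 to 3866 without single arrays.

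Of 2075 values of 92 single-gene results under an alternative, 1500 kept direction and call, 562 lost the call and 13 reversed. The reversed were, under normexp, uc007bmk (-0.13), uc009lor (-0.55), Trp73 (-0.62), Icam1 (-0.025), Traf1 (-0.62), Oas1d (-0.44) and Rad51d (-0.077). With the fixed scan time block and outliers kept they were Oas1d (-0.04), Oasl2 (-0.035), Rad51d (-0.93) and Ppp2r5d (-0.44), and Oasl2 also under that block alone and without EDRE replicates 2 and 3 (-0.035 each). The causes were not tested. Over the alternatives the mitosis list had 0 to 17 lower calls, and the p53 lists 1 to 7 and 0 to 6 higher ones.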
